A study of Mus musculus with 8 samples.

Results

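The genes described here encode subunits of the phagocyte NADPH oxidase: Cybb, Cyba, Ncf1, Ncf4 and Rac2. They were taken as every probe set that the platform annotation assigned to 1 of these 5 symbols alone, which gave 10 probe sets of 34945 with a single symbol, and 5 genes of 18193. Transcripts had been measured on Affymetrix mouse arrays in bone marrow cells of male mice, sorted as CMP (common myeloid progenitors) or GMP (granulocyte-monocyte progenitors), on a mainly C576BL/6 background, as the labels spell it. G0 TERTER/+ mice, heterozygous for a telomerase reverse transcriptase gene fused to the estrogen receptor, were the normal animals. The late-generation G4/G5 TERTER/ER mice, homozygous for the same allele, had telomere dysfunction. The fusion allele was therefore present in every animal of both genotypes, and the sources used here give neither the age of the mice nor an estrogen receptor ligand. Each of the 4 groups (G0 CMP, G4/G5 CMP, G0 GMP and G4/G5 GMP) had 2 arrays, and each array held cells pooled from 4 mice, between 5000 and 20000 of them. The adjusted p-values thus measure the spread between pools. Whether CMP and GMP pools of one number came from the same animals was not stated, and the fits treated all arrays as independent.

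The phagocyte oxidase moves electrons from cytosolic NADPH across a membrane onto oxygen and so makes superoxide, the starting point of the respiratory burst by which neutrophils and macrophages kill microbes. Its core is a membrane flavocytochrome of the catalytic chain gp91phox, encoded by Cybb, and the smaller chain p22phox, encoded by Cyba, which stabilise each other. On activation the cytosolic organiser p47phox (Ncf1) and p40phox (Ncf4), which binds phosphoinositides, join the flavocytochrome together with the GTPase Rac2, the Rac isoform of blood cells. Loss of a subunit causes chronic granulomatous disease, and the subunit genes are known to be switched on as myeloid progenitors mature.

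The promoters of 3 of the 5 members were found in the RefSeq promoter table (build GRCm38.p6). They are shown because the members are genes of 1 complex whose values were read side by side. The 250 bases upstream of the start site lie on the minus strand at chrX:9469325-9469574 for Cybb, chr8:122432941-122433190 for Cyba and chr5:134229626-134229875 for Ncf1, and are written from the 5′ end. For Cybb the 30 bases from the start site on (chrX:9469295-9469324) are added, since its matches to GAGGAA and GGAANNGAA lie there. Capitals mark matches, on either strand, to the motifs listed after the sequences.
Cybb upstream: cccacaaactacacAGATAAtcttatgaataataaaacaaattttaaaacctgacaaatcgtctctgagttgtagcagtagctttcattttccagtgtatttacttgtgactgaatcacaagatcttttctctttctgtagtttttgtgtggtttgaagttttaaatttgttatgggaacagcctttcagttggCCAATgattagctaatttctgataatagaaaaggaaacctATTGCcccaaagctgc
Cybb from the start site: tgttTTCATTTCCTCatcagaagaagaagc
Cyba upstream: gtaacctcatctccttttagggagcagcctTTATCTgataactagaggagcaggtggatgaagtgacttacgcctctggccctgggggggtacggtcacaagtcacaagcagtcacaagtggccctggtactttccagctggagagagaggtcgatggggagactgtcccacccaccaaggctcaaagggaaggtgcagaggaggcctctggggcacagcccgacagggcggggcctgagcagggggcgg
Ncf1 upstream: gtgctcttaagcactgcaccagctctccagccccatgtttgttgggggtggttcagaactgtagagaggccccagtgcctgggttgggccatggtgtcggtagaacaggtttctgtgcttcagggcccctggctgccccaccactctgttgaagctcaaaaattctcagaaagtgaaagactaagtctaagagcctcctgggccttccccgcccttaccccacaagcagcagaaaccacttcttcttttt
GAGGAA was searched as a core bound by the myeloid factor PU.1. GGAANNGAA is an element shared by ETS and IRF factors. The C/EBP element was GCAAT. The letters CCAAT, the CCAAT box, and for GATA factors AGATAA were searched as well. Positions count from 1 at the start site, with -1 the base before it. In Cybb the minus strand held GGAANNGAA at 5 to 13 and GAGGAA at 10 to 15, which overlap, and GCAAT at -16 to -12. The plus strand of Cybb held CCAAT at -56 to -52 and AGATAA at -236 to -231. Of 32851 promoter windows of 300 bases, 28.3% held GAGGAA and 8.24% held GGAANNGAA. Of the windows' 250 upstream bases, 23.1% held GCAAT, 33.85% held CCAAT and 9.99% held AGATAA. Cyba held AGATAA on the minus strand at -220 to -215, and the Ncf1 stretch held 0 of the 5 motifs. The GC content of the upstream bases was 34.0% for Cybb, below all but 3.87% of windows, 60% for Cyba and 54.4% for Ncf1, against a median of 52.4%. These matches describe letters only.

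The deposited values are MAS5 signals, an arbitrary unit scaled by the authors so that each array has a target of 100. Array medians lay between 14.3 and 18.5. The 1st principal component (54.5% of the variance over tested genes) parted CMP from GMP arrays, and G4/G5 CMP pool 1, at -3.6, lay far from the other CMP arrays, which ran from -37.8 to -30.7. That array also carried transcripts of maturing neutrophils: the summed signal of 15 neutrophil marker genes was 60695 on it and 266.6 on G4/G5 CMP pool 2. In G0 the sum was 398.9 and 367.3 in CMP and 1609 and 3555 in GMP, and in G4/G5 GMP it was 32308 and 35785. Member differences that use G4/G5 CMP pool 1 are therefore also given without it. The sources used here do not give the sort gates. Kit, the stem cell factor receptor of progenitors, read between 723 and 2214 on all 8 arrays. In bulk pools, fewer cells with a transcript and less transcript per cell cannot be told apart.

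**Figure D1:**
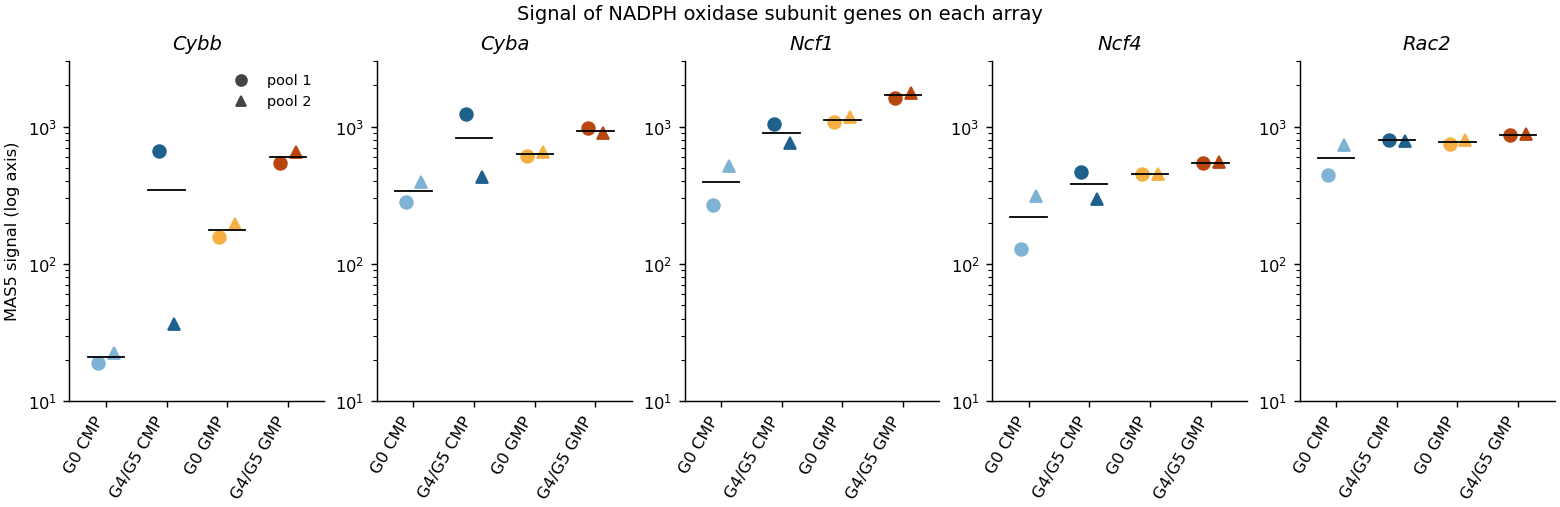
MAS5 signal (arbitrary unit, log axis) of the probe set standing for each subunit gene on the 8 arrays, by group. Circles are pool 1 and triangles pool 2 of a group, and a bar is the mean of both. Every G4/G5 GMP point lies above every G0 GMP point, and the circle of G4/G5 CMP for Cybb, at 659, lies far above the triangle at 36.2.

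Cybb, the catalytic chain of the flavocytochrome, ran over the widest range of the members. The G0 CMP pools read 19.1 and 22.6 (pool 1, then pool 2), and the G4/G5 CMP pools 659 and 36.2. The G0 GMP pools read 156 and 194.5, and the G4/G5 GMP pools 539.9 and 656. Group means were 20.8 ± 2.49, 347.6 ± 440.3, 175.3 ± 27.2 and 598 ± 82.4 (SD, n = 2). Both G0 CMP arrays were low, G4/G5 CMP pool 2 was somewhat above them, and G4/G5 CMP pool 1 read at the level of the G4/G5 GMP arrays. The signals of the G4/G5 CMP pools were 18.2-fold apart, or at least 13.2-fold if pool 2 is set at 50, whereas those of the other groups were at most 1.25-fold apart. In GMP the mean was 3.41-fold higher in G4/G5 than in G0, and in G0 it was at least 3.51-fold higher in GMP than in CMP, counted against the signal of 50 that a gene needed to be tested, since both G0 CMP signals lie under it and near the array medians.

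Cyba, the stabilising partner of Cybb, followed nearly the same order of arrays over a narrower range. Pools 1 and 2 of G0 CMP read 280.8 and 396.2, those of G4/G5 CMP 1229 and 429.9, those of G0 GMP 609 and 649, and those of G4/G5 GMP 977 and 892. Here too G4/G5 CMP pool 1 stood above all other arrays, while pool 2 lay just above the G0 CMP arrays. The GMP mean was 629 ± 28.0 for G0 and 934 ± 59.9 for G4/G5 (SD, n = 2), 1.49-fold higher with no overlap. In CMP the means were 338.5 ± 81.6 and 829.5 ± 565.1, and the SD of G4/G5 CMP exceeded the difference between them.

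Ncf1, the organiser p47phox, is given here by its probe set with the highest mean. It was ordered from G0 CMP through G4/G5 CMP and G0 GMP up to G4/G5 GMP, with no overlap between these groups. Its signals were 267.5 and 520.8, then 1047 and 759.9, then 1084 and 1167, and then 1619.7 and 1767. The means were 394.2 ± 179.1, 903 ± 203, 1126 ± 58.4 and 1694 ± 104.3 (SD, n = 2). Unlike Cybb and Cyba, Ncf1 had by this set its widest gap between pools in G0 CMP, where pool 2 read 1.95-fold above pool 1. The other tested Ncf1 sets, given below, had their widest gap in G4/G5 CMP instead. On G4/G5 CMP pool 1 the set with the highest mean stayed below both G0 GMP arrays, whereas the other sets read above G0 GMP pool 1.

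Ncf4, the phosphoinositide-binding p40phox, read 128.7 and 312.8 on the G0 CMP arrays and 469.1 and 295.4 on those of G4/G5 CMP. The G0 GMP arrays read 452.6 and 453, and the G4/G5 GMP arrays 538.8 and 554.8. The GMP pools lay close together, so that the means of 452.8 ± 0.286 and 546.8 ± 11.3 (SD, n = 2) were apart by more than the spread, at 1.21-fold. The CMP pools differed 2.43-fold in G0 and 1.59-fold in G4/G5, and the genotypes overlapped there.

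Rac2, the GTPase subunit, was the flattest member. G0 CMP read 441.6 and 739, G4/G5 CMP 805 and 789.6, G0 GMP 748 and 803.2, and G4/G5 GMP 864 and 887. Only the array of G0 CMP pool 1 lay clearly below the rest; the other 7 ran from 739 to 887. The G4/G5 mean was 1.13-fold above G0 in GMP and 1.35-fold above it in CMP, and the GMP mean 1.31-fold above CMP in G0.

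Subunit transcripts read higher in GMP than in CMP of normal mice, and Ncf1 passed the test. All 5 members had both G0 GMP arrays above both G0 CMP arrays, a pattern that 32.2% of the 8886 tested genes showed. A gene was tested where 2 or more arrays had a signal of at least 50, and it passed at an adjusted p (limma, Benjamini-Hochberg over 8886 genes) below 0.05. Differences are log2 of the signal plus 10, ± SE. Ncf1 rose by 1.56 ± 0.28 (adjusted p = 0.00932), so that 1 of 5 members passed where 10.6% of all genes were called higher. Ncf4 had 1.13 ± 0.36 (adjusted p = 0.0556), Cybb 2.58 ± 0.95 (0.0876), Cyba 0.89 ± 0.40 (0.144) and Rac2 0.43 ± 0.21 (0.174), and these did not pass. The median over the members was 1.13, against -0.02 over all genes tested.

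The error of that comparison is shared by all 4 groups, so the 18.2-fold gap between the G4/G5 CMP pools in Cybb enters it. Without G4/G5 CMP pool 1, 4 members passed (14.9% of genes called higher): Cybb (adjusted p = 0.000203), Ncf1 (0.00571), Cyba (0.00799) and Ncf4 (0.0354). With G4/G5 CMP pool 2 left out instead there were also 4 (15% of genes), and on the 4 G0 arrays alone 3 (9.16% of genes). Without G0 CMP pool 2, 3 passed (6.36% of genes), among them Rac2 at 0.80 (adjusted p = 0.0170). Without G0 CMP pool 1 the Rac2 difference was 0.068 (adjusted p = 0.742) and that of Ncf4 0.52 (0.177), while Ncf1 had 1.10 (0.0163). Centring the arrays on their medians gave 2 calls (11.2% of genes). The call of Ncf1 was lost when either G0 GMP array was left out, with adjusted p = 0.0858 without pool 1, where 0.293% of genes were called higher, and 0.0608 without pool 2, where 2.09% were; its difference was then 1.62 and 1.51.

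In telomere-dysfunctional mice the fitted step from CMP to GMP was smaller for every member, though the difference between the steps (the interaction) was not called, and 0 of 5 passed by limma where 4.19% of genes were called higher (1 at an unadjusted p under 0.05). Ncf1 had 0.92 ± 0.28 (adjusted p = 0.0704), Cybb 1.78 ± 0.95 (0.248), Ncf4 0.54 ± 0.36 (0.340), Cyba 0.35 ± 0.40 (0.586) and Rac2 0.13 ± 0.21 (0.708). Ncf1, Ncf4 and Rac2 had both GMP arrays above both CMP arrays, as 27.7% of genes did, while Cybb and Cyba overlapped. The member median was 0.54, against -0.04 over all genes. Without G4/G5 CMP pool 1, Cybb (3.71 ± 0.22, adjusted p = 0.00015), Cyba (1.10 ± 0.20, adjusted p = 0.0123) and Ncf1 (1.14 ± 0.32, adjusted p = 0.0464) passed, where 7.32% of genes were called higher. If pool 2 was left out instead, Cybb had -0.14 and Cyba -0.39. Ncf1 was called on the 4 G4/G5 arrays alone (adjusted p = 0.0494; 1.73% of genes), without G0 CMP pool 1 (0.0158; 6.11% of genes) and without G0 CMP pool 2 (0.0157; 6.38% of genes).

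In GMP, all 5 members read higher in G4/G5 than in G0 on both arrays, as did 28.8% of genes, and Cybb had the widest difference. The log2 differences were 1.72 ± 0.95 for Cybb (adjusted p = 0.660), 0.58 ± 0.28 for Ncf1 (0.633), 0.56 ± 0.40 for Cyba (0.717), 0.27 ± 0.36 for Ncf4 (0.856) and 0.17 ± 0.21 for Rac2 (0.841). By limma 0 of 5 passed, 0 of 5 had an unadjusted p under 0.05, and 0% of genes were called higher. Of all genes, 699 had an unadjusted p under 0.05. The member median was 0.56, against 0.01 over all genes.

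The GMP arrays themselves were close within each genotype, and fits without the wide CMP spread gave calls. On the 4 GMP arrays alone, Cybb (1.72 ± 0.14, adjusted p = 0.000422), Ncf1 (0.58 ± 0.09, adjusted p = 0.0120) and Cyba (0.56 ± 0.10, adjusted p = 0.0195) passed, 3 of 5 members where 2.96% of genes were called higher. Cybb also passed in the fit lacking G4/G5 CMP pool 1 (adjusted p = 0.0110; 0.421% of genes) and in that lacking pool 2 (0.00687; 0.571% of genes). Neutrophil markers differed in the same direction: in GMP, 14 of 14 tested markers read higher in G4/G5 (median 3.21, 0 called, 10 at an unadjusted p under 0.05), and without G4/G5 CMP pool 1 11 of 13 were called. Their part in the oxidase values was not tested.

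In CMP, 4 members (all but Ncf4) had both G4/G5 arrays above both G0 arrays, as 21.7% of genes did, and the G4/G5 pools stood far apart in Cybb and Cyba. The log2 differences were 2.51 ± 0.95 for Cybb (adjusted p = 0.324), 1.23 ± 0.28 for Ncf1 (0.237), 1.10 ± 0.40 for Cyba (0.321), 0.85 ± 0.36 for Ncf4 (0.362) and 0.47 ± 0.21 for Rac2 (0.377). By limma 0 of 5 passed and 4 had an unadjusted p under 0.05, where 0% of genes were called higher and 1195 of 8886 had such a p. The member median was 1.10, against 0.04 over all genes.

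Which members carried the CMP difference depended on the pool. Without G4/G5 CMP pool 1, Cybb had 0.59 ± 0.22 (adjusted p = 0.458), Cyba 0.36 ± 0.20 (0.559), Ncf4 0.53 (0.629), Ncf1 1.00 ± 0.32 (0.408) and Rac2 0.46 (0.555). With pool 2 left out, Cybb (4.44 ± 0.21, adjusted p = 4.85e-05), Cyba (1.85, adjusted p = 0.00286) and Ncf1 (1.46, adjusted p = 0.0424) passed, where 3.45% of genes were called higher. Leaving out G0 CMP pool 1 gave smaller differences, 0.76 for Ncf1 (adjusted p = 0.556), 0.24 for Ncf4 (0.776) and 0.11 for Rac2 (0.821). When G0 CMP pool 2 was left out the members called were Ncf1 (1.70, adjusted p = 0.0269), Ncf4 (1.46, adjusted p = 0.0445) and Rac2 (0.84, adjusted p = 0.0399), where 1.12% of genes were. The 14 tested neutrophil markers were all above 0 in CMP too (median 2.89, 0 called, 4 at an unadjusted p under 0.05), with a median of 0.039 and 7 of 13 above 0 once G4/G5 CMP pool 1 was left out. Their part was not tested.

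**Figure D2:**
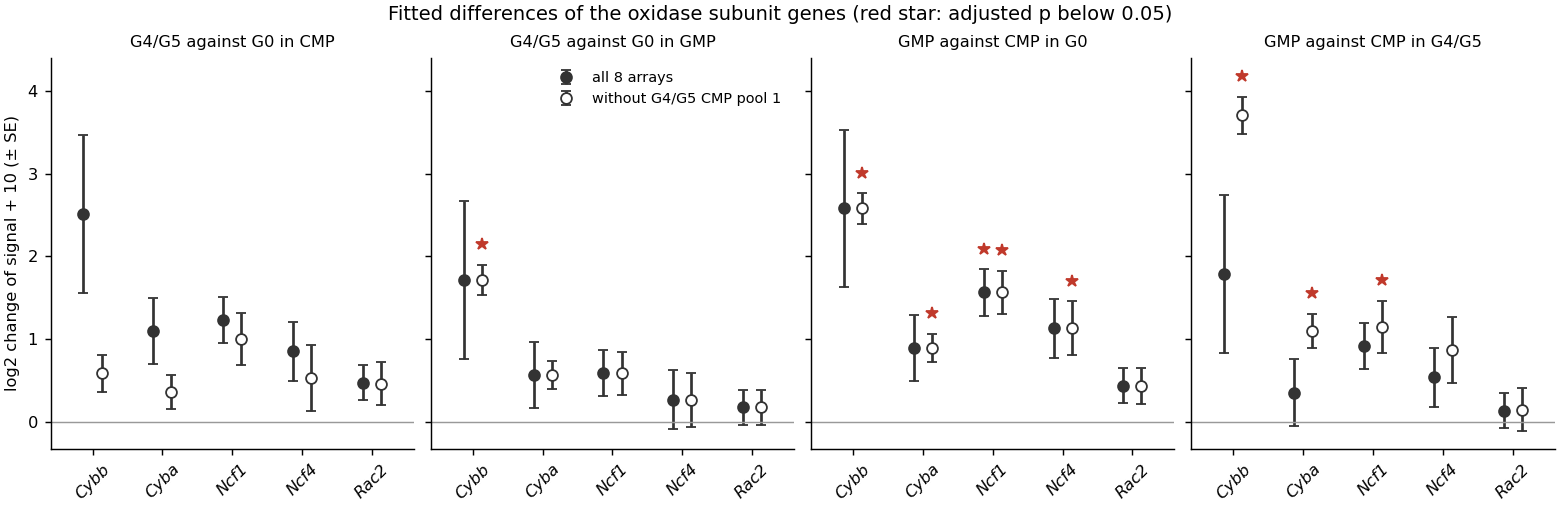
Fitted difference of log2(signal + 10) for each subunit gene in 4 comparisons, with bars of ± 1 SE; filled points use all 8 arrays, open points leave out G4/G5 CMP pool 1, and a red star marks an adjusted p below 0.05. With all arrays the Ncf1 difference of 1.56 between GMP and CMP in G0 is the only starred point, and without that pool the Cybb difference in CMP goes from 2.51 to 0.59.

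Averaged over both cell types, the genotype difference was 2.12 ± 0.67 for Cybb (adjusted p = 0.206), 0.91 ± 0.20 for Ncf1 (0.164), 0.83 ± 0.28 for Cyba (0.217), 0.56 ± 0.25 for Ncf4 (0.288) and 0.32 ± 0.15 for Rac2 (0.301). By limma 0 of 5 passed, 3 had an unadjusted p under 0.05, and 0.0113% of genes were called higher; the member median was 0.83, against 0.02 over all genes. Cybb passed without G4/G5 CMP pool 1 (1.15 ± 0.14, adjusted p = 0.0410; 0.091% of genes). Leaving out G4/G5 CMP pool 2, Cybb, Cyba and Ncf1 passed (5.05% of genes), and without G0 CMP pool 2, Ncf1, Ncf4 and Rac2 did (1.8% of genes). Without G0 CMP pool 1 none did, and the differences were 0.26 for Ncf4 and 0.14 for Rac2.

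The genotype difference was lower in GMP than in CMP for all 5 members, but this was within the error. The interaction was -0.80 ± 1.35 for Cybb, -0.65 ± 0.39 for Ncf1, -0.59 ± 0.50 for Ncf4, -0.54 ± 0.57 for Cyba and -0.30 ± 0.30 for Rac2, with adjusted p between 0.994 and 0.997. By limma 0 of 5 passed, 0 had an unadjusted p under 0.05, and 0% of genes were called in either direction (354 had such a p). The sign turned with 1 array: without G4/G5 CMP pool 1 the interaction was 1.13 for Cybb and 0.21 for Cyba, and without G0 CMP pool 1 it was 0.022 for Ncf4 and 0.066 for Rac2. Cybb was called with G4/G5 CMP pool 2 left out (-2.73, adjusted p = 0.0185; 0.126% of genes).

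**Figure D3:**
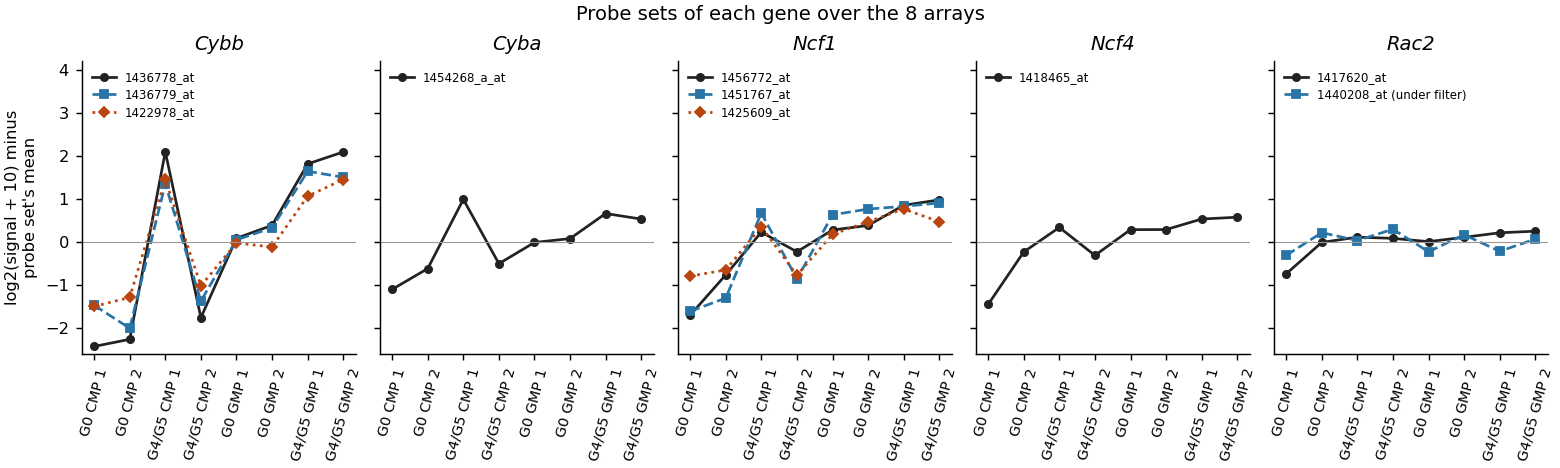
Each single-symbol probe set of the 5 genes over the 8 arrays, as log2(signal + 10) minus that probe set's own mean; arrays are ordered by group and pool. All 3 Cybb probe sets are far higher at G4/G5 CMP pool 1 than at pool 2, and the 2nd Rac2 probe set stays under a signal of 50 on all arrays.

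Several members had more than 1 probe set. Those of Cybb largely repeated the pattern, while those of Ncf1 differed in which group had the widest gap between pools. For Cybb, the set with the 2nd highest mean read 100.9 on G4/G5 CMP pool 1 and 6.77 on pool 2, 34.9 and 44.6 on the G0 GMP arrays, and 125.6 and 113.1 on the G4/G5 GMP arrays. The 3rd Cybb set read 108.2 and 11.3 on the G4/G5 CMP arrays, 32.5 and 29.7 on those of G0 GMP, and 80.2 and 107.8 on those of G4/G5 GMP. Both sets read 7.65 or less in G0 CMP, and in each the G0 CMP arrays lay below all other arrays. These signals and those of G4/G5 CMP pool 2 lie under the array medians, so the order among them is not read. For Ncf1, the 2nd set read 36.9 and 48.1 in G0 CMP, 218.6 on G4/G5 CMP pool 1 and 69.0 on pool 2. On the G0 GMP arrays it read 212.2 and 233.7 and on the G4/G5 GMP arrays 244.7 and 258.7, so that the cell types were further apart than the genotypes in GMP. The 3rd Ncf1 set read between 23.2 and 87.8, with 63.7 on G4/G5 CMP pool 1 and 55.1 on G0 GMP pool 1. Its 23.7 on G4/G5 CMP pool 2 lay within the G0 CMP range. Of 10 member probe sets, 9 were tested, and the 2nd Rac2 set, between 14.9 and 28.0 on all arrays, was not. In the fit over 14743 probe sets, 2 of 9 passed between GMP and CMP in G0, where 8.98% of probe sets were called higher: the Ncf1 sets with the highest (adjusted p = 0.00911) and the 2nd highest mean (2.16 ± 0.40, adjusted p = 0.0109). Without G0 GMP pool 1 there were 0 (0.334% of probe sets) and without pool 2 also 0 (1.62%). Leaving out either G4/G5 CMP array gave 8 (13.1% of probe sets), and leaving out G0 CMP pool 2 gave 4 (4.94%).

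Across the 8 arrays all members were alike to some degree. Pearson correlations of log2(signal + 10) are given as descriptions; the 8 points share groups, so they follow the group means in part. Cybb and Cyba had r = 0.969, and 0.952 after each group's mean was taken off; without G4/G5 CMP pool 1 these were 0.972 and 0.315, so the likeness within groups rested on that array. Ncf1 and Ncf4 had 0.962, and 0.991 within groups, and Rac2 went with Ncf4 (0.937 and 0.891) and with Ncf1 (0.897 and 0.913). Over the other 7 arrays the within-group values of Ncf1, Ncf4 and Rac2 with each other were between 0.989 and 0.996. Those of Cyba with these 3 were between 0.922 and 0.952. These 7-array values rested mainly on the gap between the G0 CMP pools. The SD of log2(signal + 10) was 0.66 for Ncf1, 0.86 for Ncf4, 0.52 for Rac2 and 0.34 for Cyba there. In the GMP groups it was at most 0.092 for these genes. Cybb and Rac2 were least alike, at 0.672, and 0.0933 within groups (0.686 and 0.495 over 7 arrays). By the probe sets standing for the genes, the widest gap between pools lay in G4/G5 CMP for Cybb and Cyba, and in G0 CMP for Ncf1, Ncf4 and Rac2. The other tested Ncf1 sets had theirs in G4/G5 CMP.

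Genes outside the complex whose pattern was most like each member were found by the same measure, 3 per member over 8 arrays (the r of these genes without G4/G5 CMP pool 1 was between 0.973 and 0.995). For Cybb they were Lcn2 (r = 0.992), an iron-siderophore binding protein of neutrophil granules, Rflnb (0.991) and Pglyrp1 (0.989), a peptidoglycan recognition protein. The G0 CMP arrays read 15.1 and 6.42 for Lcn2, those of G4/G5 CMP 4147 and 11.8, those of G0 GMP 352.4 and 387.9, and those of G4/G5 GMP 2499 and 2602. For Cyba they were Rabac1 (0.987), Glrx (0.982), a glutaredoxin, and Pilrb1 (0.981), a paired immunoglobulin-like receptor. For Ncf1 they were Gpr160 (0.991), Galns (0.990), a lysosomal sulfatase, and Plin3 (0.990), a lipid droplet protein. For Ncf4 they were Tlr2 (0.993), a receptor for bacterial lipoproteins, Jdp2 (0.979) and Coq9 (0.978), needed to make ubiquinone. For Rac2 they were Pstpip1 (0.992), a cytoskeletal adaptor, Slc39a11 (0.992), a zinc transporter, and Rab4b (0.984).

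**Figure D4:**
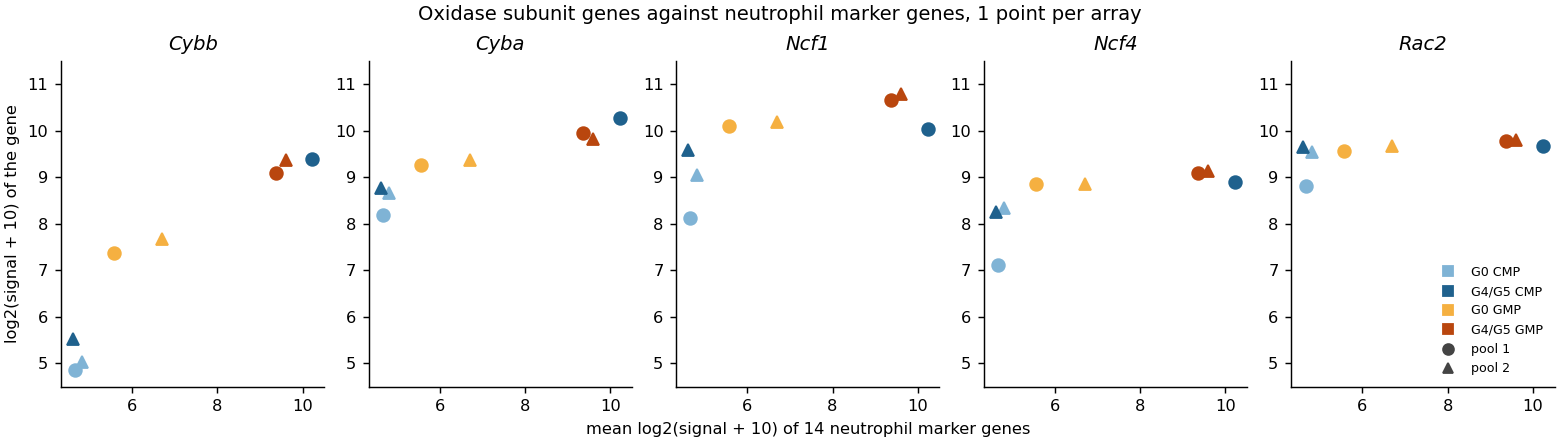
log2(signal + 10) of each subunit gene against the mean log2(signal + 10) of 14 neutrophil marker genes, 1 point per array, coloured by group. Cybb and Cyba are higher where the marker mean is higher (r = 0.948 and 0.935), while Rac2 is nearly flat apart from G0 CMP pool 1 (r = 0.570).

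The members differed in how closely they followed neutrophil markers. Ngp, a neutrophil granule protein, read 29.4 or less on 4 arrays, 8262 on G4/G5 CMP pool 1, 258.2 on G0 GMP pool 2, and 4257 and 4743 on the G4/G5 GMP arrays. Camp, an antimicrobial granule peptide, read 10.4 or less on the same 4 arrays, 120.0 on G0 GMP pool 2, 5902 on G4/G5 CMP pool 1, and 2229 and 3107 on the G4/G5 GMP arrays. Lactoferrin, Ltf, reached at most 62.6 outside G4/G5 CMP pool 1 and G4/G5 GMP. Ly6g was not analysed here. With the mean of 14 markers, r over 8 arrays was 0.948 for Cybb, 0.935 for Cyba, 0.733 for Ncf1, 0.704 for Ncf4 and 0.570 for Rac2. Over the 7 arrays other than G4/G5 CMP pool 1 it was 0.942, 0.906, 0.814, 0.725 and 0.596. On G0 GMP pool 1 the markers were split: Ngp and Camp, at 22.1 and 10.4, were near their G0 CMP signals, whereas S100a8, at 898 against 179 and 103.2 in G0 CMP, and Lcn2, at 352.4, were above theirs.

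Markers of other myeloid cells also differed between the groups. Of all genes tested, 10.6% were called higher in GMP than in CMP in G0 and 4.19% in G4/G5. Called lower were 10.2% in G0 and 6.3% in G4/G5. The 8 promyelocyte and GMP markers, granule proteases among them, summed to 10003 and 18003 on the G0 CMP arrays, 29712 and 26693 on those of G4/G5 CMP, and between 36022 and 41507 on those of GMP; 5 of 8 were called higher in GMP than in CMP in G0 and 3 of 8 in G4/G5. The sum was thus lowest on G0 CMP pool 1, as were all 5 members. The 14 monocyte, macrophage and dendritic markers summed to 1615 on that array and to between 3278 and 7422 on the others, with 5 of 9 tested called higher in GMP in G0 and 1 of 9 in G4/G5. Among them F13a1 reached 3017 and Csf1r 1492, while Adgre1 (F4/80), which was called higher in GMP in G0 (adjusted p = 0.0337), reached 89.8 and Mrc1 13.1. The 9 eosinophil, basophil and mast cell markers summed to 7763 on G4/G5 CMP pool 1 and at most 5858 elsewhere, with eosinophil peroxidase, Epx, between 4.49 and 318.4; 4 of 7 tested were called higher in GMP in G0 and 1 of 7 in G4/G5. The 8 erythroid markers summed to between 1729 and 5589 and the 6 megakaryocyte markers to between 347.7 and 3033. Both sums were higher in CMP than in GMP. Of 6 tested erythroid markers, 3 were called lower in GMP in G0 and 5 in G4/G5. Tfrc went the other way and was called higher in GMP in both, reading 527 to 778 in CMP and 1007 to 1263 in GMP. Of 6 megakaryocyte markers, 2 were called lower in GMP in G0 and 4 in G4/G5. The 6 B lymphoid markers summed to at most 250.8 and the 6 T and NK markers to at most 1658, with Cd79a at 10.5 or less and Cd3e at 8.94 or less. Most of the B sum came from Cd79b (107 to 182.5) and most of the T and NK sum from Nkg7 (704 to 1623), which was called higher in GMP than in CMP in G0 (adjusted p = 0.00489) and in G4/G5 (0.0251). In the genotype comparisons 0 markers of these lists were called by limma. In CMP 5 of 8 promyelocyte, 8 of 9 monocyte and 4 of 7 eosinophil, basophil and mast cell markers had an unadjusted p under 0.05, and in GMP 0, 3 and 0. The part of these cells in the oxidase values was not tested.

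Of 16 other oxidase subunits and partners, 11 had a single-symbol probe set and 5 were tested. In G0, Hvcn1 and 1 of 2 tested probe sets of Rac1 rose from CMP to GMP, where 10.6% of genes were called higher. The other Rac1 set had the opposite sign. Rac1, the widely expressed Rac isoform, read 739.8 and 652.4 on the G0 CMP arrays, 1005 and 714 on those of G4/G5 CMP, 1091 and 1027 on those of G0 GMP, and 1215 and 1222 on those of G4/G5 GMP (0.60 ± 0.17, adjusted p = 0.0383 in G0), by the set with the highest mean. The other set read 775.6 and 1357 on the G0 CMP arrays and 787.2 and 755.1 on those of G0 GMP, with a difference of -0.41 ± 0.26 (limma over probe sets, adjusted p = 0.283). The direction of Rac1 thus differed between its probe sets. Hvcn1, the proton channel that balances the charge the oxidase moves, read 36.6 and 68.2 on the G0 CMP arrays, 93.5 and 152.2 on those of G0 GMP, and between 86.7 and 214.9 on those of G4/G5 (1.10 ± 0.32, adjusted p = 0.0441 in G0). With 1 array left out, Hvcn1 passed in 3 of 8 fits (adjusted p up to 0.24, without G0 GMP pool 2). In 4 of the 8 fits the other Rac1 set had the higher mean and stood for the gene, with -0.44 to -0.38 and 0 calls. In the other 4 the first set had 0.51 to 0.69, and 2 passed. Cybc1, a chaperone of the flavocytochrome, read between 194.4 and 389 (G4/G5 against G0 in CMP 0.49 ± 0.23, adjusted p = 0.402). The small GTPases Rap1a, between 1387 and 1771, and Rap1b, between 2075 and 4020, were not called in any of the 6 comparisons. In the genotype comparisons and in G4/G5, 0 of 5 passed by limma, with 1 at an unadjusted p under 0.05 in CMP, 0 in GMP and 2 between cell types in G4/G5. The list's median was 0.28 in CMP and 0.20 in GMP for genotype. Rac3, Nox4, Noxo1, Duox1, Duoxa1 and Duoxa2, parts of other oxidases or another Rac, stayed at or below 29.5 on all arrays. Nox1, Nox3, Noxa1 and Duox2 were not analysed here.

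Of 33 upstream regulators (kinases, receptors and adaptors that start the burst), 27 were tested, and 3 changed between GMP and CMP in G0: 2 rose, where 10.6% of genes were called higher, and 1 fell, where 10.2% were called lower. The Fc receptor Fcgr3 rose by 3.73 ± 0.77 (limma, adjusted p = 0.0147). Antibodies to it are commonly used to part GMP from CMP, so its difference between the sorted populations is no finding. On G4/G5 CMP pool 1, however, Fcgr3 read 617.5, near the 731.9 of G0 GMP pool 1. It read 72.2 on G4/G5 CMP pool 2, and 38.7 and 83.9 on the G0 CMP arrays. The reason was not tested. The beta-glucan receptor Clec7a rose by 1.74 ± 0.46 (0.0333), from 33.7 and 60.3 to 166.9 and 183.3. Protein kinase C alpha, Prkca, fell by 1.25 on the log2 scale (SE 0.25, adjusted p = 0.0136), from 166 and 151.8 to 61.4 and 60.6. In G4/G5, 1 of 27 rose and 1 fell, where 4.19% of genes were called higher and 6.3% lower. Protein kinase C beta, Prkcb, rose by 2.20 ± 0.57 (limma, adjusted p = 0.0442) and Prkca fell by 1.68 (SE 0.25, adjusted p = 0.00812). The Prkcb signals were 124.2 and 22.6 on the G4/G5 CMP arrays, then 266.9 and 326 on those of G4/G5 GMP, and G4/G5 CMP pool 1 was again the higher CMP array; without it Prkcb had 3.22 (adjusted p = 0.0016), and 1.19 (0.0703) with pool 2 left out instead. Without G0 GMP pool 1 the G0 adjusted p was 0.0986 for Fcgr3, 0.166 for Clec7a and 0.109 for Prkca; without G4/G5 GMP pool 1 the G4/G5 value was 0.218 for Prkcb and 0.0955 for Prkca. For genotype, 0 of 27 passed by limma in CMP (7 at an unadjusted p under 0.05, median 0.10) or GMP (4, median 0.09).

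Of 20 transcription factors known to act on oxidase genes or in myeloid cells, 16 were tested, and 3 rose and 4 fell from CMP to GMP in G0, where 10.6% of genes were called higher and 10.2% lower. Cebpb rose by 2.08 ± 0.25 (adjusted p = 0.00302), from 155.1 and 142.5 to 716 and 611.7, and Cebpd by 2.01 ± 0.34 (0.00853). The repressor Gfi1, needed for granulocyte differentiation, rose by 2.03 ± 0.25 (0.00321), from 138.5 and 267.4 to 794.6 and 844.6. The largest falls were Irf2, by 1.43 (limma, adjusted p = 0.0158), Runx1, by 0.89 (0.0204), and the ETS factor Elf1, by 0.86 (0.0147). For Runx1 this holds for the probe set with the highest mean. Its other tested sets had -0.78, -0.48, -0.42 and -0.11 and were not called (limma over probe sets, adjusted p from 0.166 to 0.696). In G4/G5, 4.19% of genes were called higher and 6.3% lower. There Gfi1 (1.94, limma, adjusted p = 0.00423) and Cebpb (1.26, adjusted p = 0.0208) rose. Runx1, by the set with the highest mean, fell by 0.91 (0.0309). The list's median was -0.29 in G0 and -0.38 in G4/G5. With G0 GMP pool 1 left out, the G0 adjusted p was 0.053 for Cebpb, 0.079 for Cebpd, 0.0507 for Gfi1, 0.134 for Irf2, 0.0905 for Runx1 and 0.122 for Elf1; with G4/G5 GMP pool 1 left out, the G4/G5 value was 0.0572 for Gfi1, 0.169 for Cebpb and 0.246 for Runx1. For genotype, 0 of 16 passed in CMP (3 at an unadjusted p under 0.05, median 0.15) or GMP (1, median 0.01).

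Of 24 genes that handle oxidants, 18 were tested, and 3 rose and 1 fell from CMP to GMP in G0, shares that are not far from the 10.6% of genes called higher and 10.2% called lower. Glutathione reductase, Gsr, rose by 1.95 ± 0.42 (adjusted p = 0.0164), from 195.2 and 190.1 to 712 and 836, and read 605.9 and 189.1 in G4/G5 CMP, where G4/G5 CMP pool 1 again stood above pool 2. The mitochondrial enzymes Sod2 and Prdx3 rose by 0.57 ± 0.13 (0.0217) and 0.50 ± 0.14 (0.0404). Prdx4, a peroxiredoxin of the endoplasmic reticulum, fell by 0.86 (0.00655), from 427.4 and 387.2 to 214.3 and 224.3. In G4/G5, 4.19% of genes were called higher and 6.3% lower. There Gsr (1.81, limma, adjusted p = 0.0330) and Sod2 (0.58, adjusted p = 0.0334) rose and Prdx4 fell by 1.28 (0.00202). With 1 array left out the Prdx4 difference ran from -1.35 to -1.20, by the probe set with the highest mean. The other tested Prdx4 sets had -0.70 and -0.54 and were not called (limma over probe sets, adjusted p = 0.156 and 0.144). The Gsr difference in G4/G5 was 2.63 without G4/G5 CMP pool 1 and 1.00 without pool 2. Of 3 Sod2 probe sets 1 differed by only -0.06 in G0 (adjusted p = 0.879). Without G0 GMP pool 1 the G0 adjusted p was 0.109 for Gsr, 0.178 for Sod2, 0.241 for Prdx3 and 0.079 for Prdx4, and without G4/G5 GMP pool 1 the G4/G5 value was 0.213 for Gsr and 0.227 for Sod2. For genotype, 0 of 18 passed in CMP (5 at an unadjusted p under 0.05, median 0.17) or GMP (0, median -0.05).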

How the data were processed

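The members and gene lists were chosen with earlier results of these data known. RNA from sorted pools was extracted with Trizol, labelled with biotin and hybridised to Affymetrix Mouse Genome 430 2.0 arrays, per the labels' protocols. The deposited values are probe-set intensities on a linear scale, made by the authors with MAS5 (Microarray Suite 5.0, target 100), per the submitters' processing notes and the series text; detection calls and background settings are not given in these sources. From them log2(signal + 10) was computed without further normalization, which understates changes of low signals. The single-symbol probe set with the highest mean stood for a gene (932 probe sets had several symbols, 9160 none, and 64 control probe sets were left out). Genes with a signal of 50 on at least 2 arrays were fitted with limma 3.58.1 in R 4.3.3 (1 mean per group, eBayes with an intensity trend, 4 residual degrees of freedom), with Benjamini-Hochberg adjustment over 8886 genes and a threshold of 0.05. The fit was tested on simulated data with the same spread for every gene and no array standing apart. Arrays such as G4/G5 CMP pool 1 were thus not covered by it. Named were all members, the 3 genes most alike to each, every tested oxidase partner, and at most 3 rises and 3 falls per other list and comparison. The number of arrays limits the precision. Alternatives were other normalizations, pseudocounts, filters, probe-set rules, blocks, array subsets and leaving out each array. Promoters were searched in Python 3.11.15.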

Additional observations from a re-analysis of the deposited data

How the results depend on the processing

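Over the member differences, 344 values came from alternatives that kept all arrays of a comparison's fit or only its own 4: 336 kept direction and side of the threshold, 7 passed newly, 0 lost a call and 1 turned sign, Rac2 between GMP and CMP in G4/G5 with the mean over its probe sets (-0.053, adjusted p = 0.907). With each array left out in turn, 240 values gave 203 unchanged in this sense, 29 newly past, 2 lost and 6 of the other sign. The count of members called went from 0 to 3 on the 4 GMP arrays alone for genotype in GMP (2.96% of genes called higher). For GMP against CMP in G4/G5 the count went from 0 to 1 on the 4 G4/G5 arrays alone (1.73% of genes). Between GMP and CMP in G0 it went from 1 to 2 with median centring (11.2% of genes called higher) and to 3 on the G0 arrays alone (9.16% of genes). With 1 array left out the count of members called moved in every comparison, but so did the share of all genes called. Those counts are therefore not read on their own. The log2 differences that turned sign ran, with 1 array left out, from -0.14 to 3.71 for Cybb and from -0.39 to 1.10 for Cyba between GMP and CMP in G4/G5. Those of the interaction ran from -2.73 to 1.13 for Cybb, -1.29 to 0.21 for Cyba, -1.20 to 0.022 for Ncf4 and -0.66 to 0.066 for Rac2. Here a group with 1 array is assumed to vary like the others, and for these shifts the cause was not tested beyond the arrays named. Over all genes, the count called in CMP was 1, and 0 to 443 with 1 array left out, 8 with quantile normalization and 5 with median centring; in GMP it was 0, and 358 on the GMP arrays alone. In G0 it was 1845 (67 without G0 GMP pool 1), and in G4/G5 932 (428 on the G4/G5 arrays alone). Every tested probe set of the list genes, and correlations and marker medians without G4/G5 CMP pool 1, were added after the data were seen. Cyba had no probe set left without the _x_at, _s_at and _a_at sets. Signal over background limits Cybb in G0 CMP, whose 22.6 or less lies near the array medians.

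The series text pairs pools of one number by age and gender, but names no shared litter or day. The difference of pool 1 and pool 2 correlated across genes at 0.246 between the CMP genotypes and 0.139 between the GMP genotypes, and from -0.229 to 0.217 between other groups, so the numbers were not taken to pair the samples. With the replicate block, within cell type or shared, the members called stayed at 0, except for 1 between GMP and CMP in G0: Ncf1, with adjusted p = 0.0181 and 0.00971. Over all genes the block within cell type called 2 in CMP, 0 in GMP, 2354 in G0 and 1465 in G4/G5.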
